A study of Bos taurus with 8 samples.

Results

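The MCM helicase and replication licensing genes were taken as 10 genes, MCM2, MCM3, MCM4, MCM5, MCM6, MCM7, MCM10, CDC6, CDT1 and GMNN, and were found by their platform gene symbol. They had 13 of the 43794 gene probes on the bovine EmbryoGENE array, 3 for MCM2, 2 for CDC6 and 1 for each other gene. Of these, 12 probes of 9 genes passed a minimum mean log2 intensity of 7 and were tested, among 33519 probes and 12941 named genes in all. Only MCM10 was left out by this minimum. The levels compared were those of granulosa cells from atretic and from plateau follicles of Holstein cattle. All were dominant follicles from slaughterhouse ovaries, and the stage of the oestrous cycle of each cow is not known. Atretic follicles are those undergoing regression, and plateau follicles are those with few mitoses and little regression. The study placed each follicle by the DNA content of its cells in flow cytometry, with a score that counts resting and dividing cells alike and lowers the rank for cells that have lost DNA. Each of 8 two-colour arrays carried labelled RNA of an atretic and of a plateau follicle. On the 4 arrays of slide 205 the atretic RNA was in Cy5 and the plateau RNA in Cy3, and on the 4 arrays of slide 206 the dyes were swapped. Arrays of equal number on both slides were averaged, which left 4 pairs of follicles.

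Before a cell copies its DNA, each origin of replication must be licensed. The origin recognition complex binds the DNA and, with CDC6 and CDT1, loads the ring formed by MCM2 to MCM7, the core of the helicase that later unwinds the strands. MCM10 helps to switch the loaded helicase on. Geminin, the product of GMNN, binds CDT1 and stops a second round of loading once replication has begun. Most of these genes are transcribed as cells enter the division cycle, and granulosa cells of growing follicles divide actively. No sequence is shown for these genes because no probe, promoter or protein sequence was among the references used here.

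Median spot intensity was 162 to 283 in Cy5 and 205 to 374 in Cy3, depending on the array, and median local background was 39 to 71 in Cy5 and 21 to 31 in Cy3. No spot of a licensing gene was marked in the image analysis. Levels are given as normalised log2 intensity, and ratios as log2 of atretic over plateau, so that a positive value is higher in atretic follicles. Levels of different probes cannot be set against each other. All 15 granulosa markers on the list used here were tested and 9 were above the negative controls in every reading. None of the 15 passed the threshold described next. The brightest probe stood for its gene. A gene is said to have fallen or risen where that probe passed the threshold of the study, a change of at least 1.5-fold up or down with an unadjusted p below 0.05. It sets no limit on the rate of false discoveries. The adjusted p-values are those of limma after Benjamini-Hochberg adjustment over all tested probes. Nothing in the labels says that the follicles came from different cows. The p-values therefore measure only the spread between these samples, and the number of arrays limits the precision.

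Of the 9 licensing genes tested, MCM3, MCM4 and GMNN fell in atretic follicles, none rose, and 6 did not pass. Their log2 ratios were -1.20 ± 1.00 for MCM3, -1.01 ± 0.83 for MCM4 and -1.22 ± 1.18 for GMNN (SD, n = 4 pairs). Over all named genes, 2.91% were lower in atretic follicles at this threshold, 377 of 12941. The mean ratio was below 0 for 8 of the 9 genes and above 0 for CDT1, while it was below 0 for 6423 of all 12941 genes. The median over the 9 was -0.69, beside 0.00 over all genes, which normalisation sets near 0. A lower ratio than that of GMNN was found for 1.36% of all genes, than that of MCM3 for 1.48%, of MCM5 for 2.13%, of MCM4 for 2.32%, of CDC6 for 4.47%, of MCM6 for 6.24%, of MCM7 for 6.65%, of MCM2 for 7.49% and of CDT1 for 73.1%. The share of genes passing an adjusted p of 0.05 was 0%, and this held for the licensing genes, whose lowest adjusted p was 0.585. The lowest over all probes was 0.166, while 2524 probes had an unadjusted p under 0.05. Because the cells were pooled from a whole follicle, fewer dividing cells and less RNA per cell cannot be told apart.

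**Figure D1:**
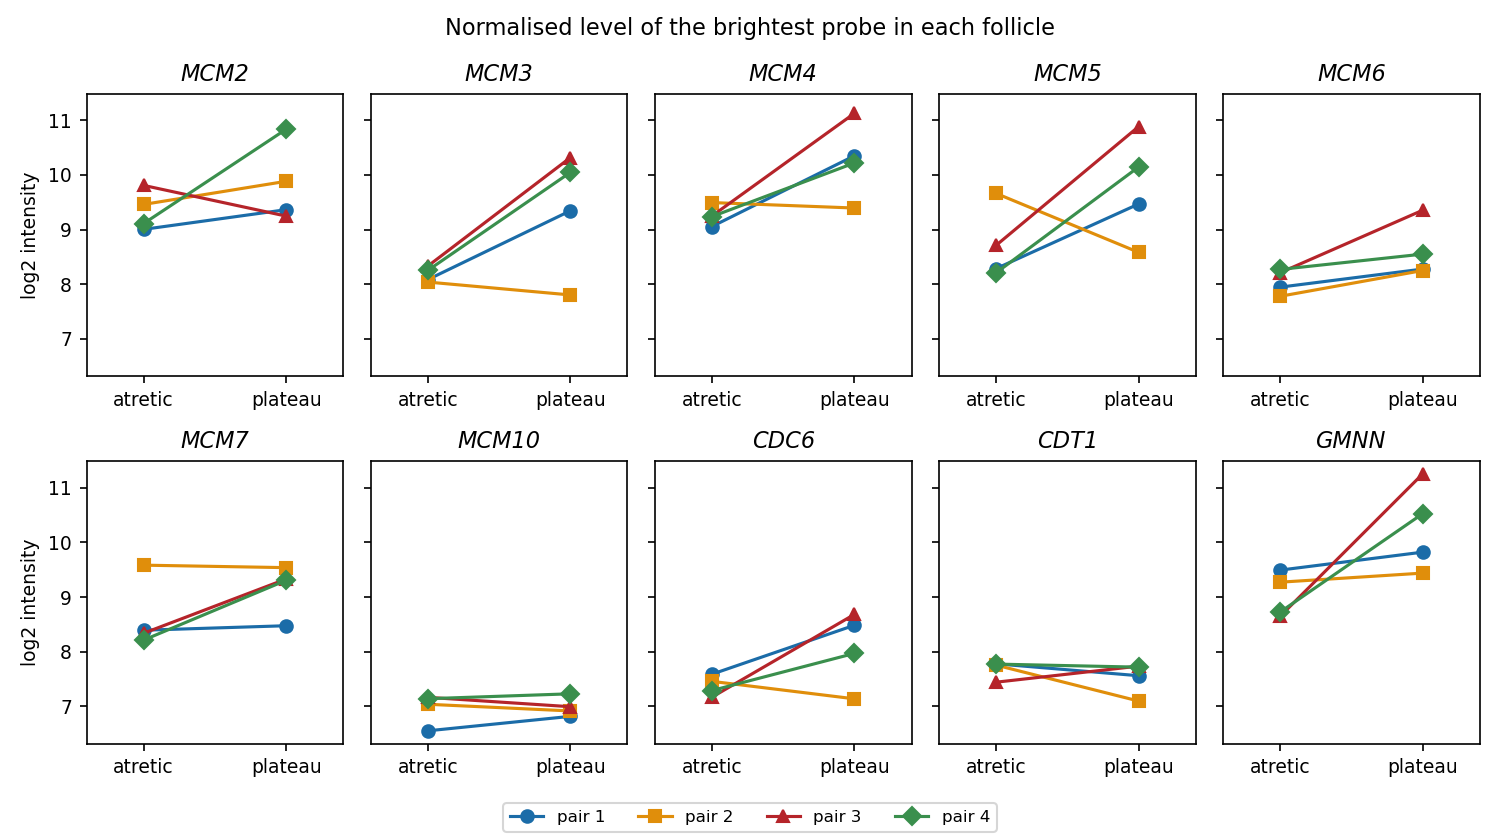
Normalised log2 intensity (vertical axis) of the brightest probe of each gene in 4 atretic follicles (left) and 4 plateau follicles (right), with a line joining the follicles that shared an array. For MCM3 the atretic levels sit between 8.04 and 8.33, while the plateau levels run from 7.80 to 10.31, with pair 2 lowest.

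MCM3, a subunit of the MCM ring, had levels of 8.08, 8.04, 8.33 and 8.25 in the atretic follicles of pairs 1 to 4, against 9.34, 7.80, 10.31 and 10.04 in the plateau follicles. The atretic levels were close together and the plateau levels were not, and the plateau follicle of pair 2 was below every atretic one, so the groups overlapped. On slide 205 the spot intensities before correction were 271, 338, 359 and 378 in the atretic channel, against 712, 441, 1197 and 1357 in the plateau channel, so that on this slide the plateau spot of pair 2 was above every atretic spot before correction. After normalisation the ratio of pair 2 was 0.07 on slide 205 and 0.40 on slide 206. On slide 206, with the dyes swapped, the uncorrected spots of pair 2 read 419 in the atretic and 312 in the plateau channel. The ratios were -1.26, 0.24, -1.98 and -1.79. The level was 2.30-fold lower in atretic follicles, with a 95% interval of the log2 ratio of -2.18 to -0.22 (limma, adjusted p = 0.589). MCM3 missed the threshold when pair 1, 3 or 4 was left out, at -1.18, -0.94 and -1.002.

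MCM4, one of the subunits that hydrolyse ATP in the ring, also had atretic levels that lay close together. Its levels were 9.06, 9.49, 9.25 and 9.24 in atretic follicles, against 10.35, 9.39, 11.13 and 10.22 in plateau follicles. Only the plateau follicle of pair 2 lay within the range of the atretic ones. The ratios were -1.29, 0.10, -1.88 and -0.98, a 2.02-fold lower level in atretic follicles (95% interval of the log2 ratio -1.84 to -0.19, limma, adjusted p = 0.585). Without pair 1, 3 or 4 the ratio was -0.92, -0.72 and -1.02, and each missed the threshold.

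MCM5, which sits beside MCM2 at the gate of the ring, had levels of 8.29, 9.66, 8.71 and 8.21 in atretic follicles, against 9.47, 8.58, 10.88 and 10.14 in plateau follicles. In pair 2 the atretic follicle was the higher one by 1.08, and in the other pairs the plateau follicle was higher by 1.18 or more. The mean ratio of -1.05 ± 1.48 was close to that of MCM4, but the spread between pairs was wider and MCM5 did not pass (95% interval -2.47 to 0.37, limma, adjusted p = 0.751). Without pair 2 the ratio was -1.76 and MCM5 passed, while without pair 3 it was -0.68 and without pair 4 it was -0.76. It also passed, at the same ratio, when all 8 arrays entered the fit and the pair was a replicate block. The limit of that fit is given below.

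MCM6, another subunit of the ring, had levels of 7.95, 7.78, 8.21 and 8.27 in atretic follicles, against 8.28, 8.25, 9.35 and 8.55 in plateau follicles. The atretic follicle was the lower one of every pair and on all 8 arrays, although the ranges touched, with the highest atretic level just above the lowest plateau level. The ratios of -0.33, -0.47, -1.14 and -0.28 averaged -0.56 ± 0.40 (95% interval -1.01 to -0.10, limma, adjusted p = 0.588). MCM6 thus met the p of the study's threshold but not its fold, which is 0.585 on the log2 scale. It passed without pair 1 (-0.63) and without pair 4 (-0.65), and read -0.36 without pair 3. GMNN was the other licensing gene below 0 in all pairs, 2 of 9, where 8.35% of all genes were lower in all 4 pairs.

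MCM7 had levels of 8.39, 9.58, 8.34 and 8.21 in atretic follicles, against 8.48, 9.54, 9.33 and 9.31 in plateau follicles. Both follicles of pair 1 were near the low end and both of pair 2 near the high end, so the difference came from pairs 3 and 4. The ratios were -0.08, 0.05, -0.99 and -1.09, with a mean of -0.53 ± 0.59 (95% interval -1.15 to 0.09, limma, adjusted p = 0.707). Without pair 2 the ratio was -0.72 and passed the threshold, while without pair 3 it was -0.38 and without pair 4 it was -0.34.

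MCM2, the subunit through which the ring also binds histones, was read by 3 probes that differed from each other. The brightest gave levels of 9.00, 9.46, 9.81 and 9.11 in atretic follicles, against 9.36, 9.88, 9.25 and 10.83 in plateau follicles. Its ratios were -0.36, -0.42, 0.56 and -1.72, with the atretic follicle higher in pair 3, and averaged -0.49 ± 0.94 (95% interval -1.41 to 0.44, limma, adjusted p = 0.826). The next probe read -0.30, 0.88, -0.85 and -0.58, so that pair 2 and not pair 3 was the one above 0. The dimmest read 0.20, -0.56, 0.05 and -0.20, and only 4 of its 8 atretic and 3 of its 8 plateau readings were above the 95th percentile of the negative controls. The means of these probes were -0.21 ± 0.76 and -0.13 ± 0.33. The brightest probe read -0.84 and passed without pair 3, and read -0.07 without pair 4. In 3 of the 4 pairs the sign depended on the probe, so no direction is given for MCM2.

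MCM10, the factor that helps to start the helicase, was near background and was not tested, with a mean log2 intensity of 6.98. Only 3 of 8 atretic and 1 of 8 plateau readings exceeded the 95th percentile of the negative controls of their array and channel. Its ratios were -0.26, 0.12, 0.17 and -0.09, with a mean of -0.02 ± 0.20. At these intensities a difference in MCM10 was not detectable.

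Among the loading factors, CDC6 had 2 probes. The brightest had levels of 7.59, 7.46, 7.17 and 7.29 in atretic follicles, against 8.48, 7.14, 8.68 and 7.97 in plateau follicles. As with MCM3 and MCM4, the plateau follicle of pair 2 was the exception, being the lowest of all 8. The ratios were -0.89, 0.32, -1.51 and -0.68, with a mean of -0.69 ± 0.76 that did not pass (95% interval -1.45 to 0.07, limma, adjusted p = 0.698). It passed without pair 2, at -1.03, and with the pair as a replicate block, and it read -0.42 without pair 3. For this probe 6 of 8 atretic and 7 of 8 plateau readings were above the negative controls. The other probe was dim, with 2 of 8 readings above the negative controls in each group, and its 4 ratios lay between -0.17 and -0.07.

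CDT1, the partner that brings the MCM ring to the origin, was the only tested gene of the group with a mean above 0. Its levels were 7.78, 7.76, 7.44 and 7.77 in atretic follicles, against 7.56, 7.10, 7.74 and 7.72 in plateau follicles. The ratios of 0.22, 0.66, -0.29 and 0.06 averaged 0.16 ± 0.39 (95% interval -0.29 to 0.61, limma, adjusted p = 0.891). In each group 7 of 8 readings were above the negative controls. Without pair 2 the mean was -0.01.

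GMNN, the inhibitor of CDT1, had levels of 9.49, 9.27, 8.65 and 8.73 in atretic follicles, against 9.82, 9.44, 11.25 and 10.52 in plateau follicles. On slide 205 the spot intensities before correction were 728, 692, 452 and 520 in the atretic channel, against 1022, 925, 2353 and 1669 in the plateau channel. On slide 206 the uncorrected spots of pair 2 read 788 in the atretic and 735 in the plateau channel, and the normalised ratio of that array was -0.12. After normalisation the atretic follicle was the lower one in each pair and on all 8 arrays, by little in pairs 1 and 2 and by much in pairs 3 and 4, and the ranges overlapped through the atretic follicle of pair 1. The ratios were -0.33, -0.17, -2.60 and -1.80, a 2.34-fold lower level in atretic follicles (95% interval of the log2 ratio -2.36 to -0.08, limma, adjusted p = 0.630). GMNN missed the threshold without pair 3 (-0.76), without pair 4 (-1.03) and with no background correction (-1.12). Geminin protein is removed by proteolysis as mitosis ends, and the protein was not measured here.

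**Figure D2:**
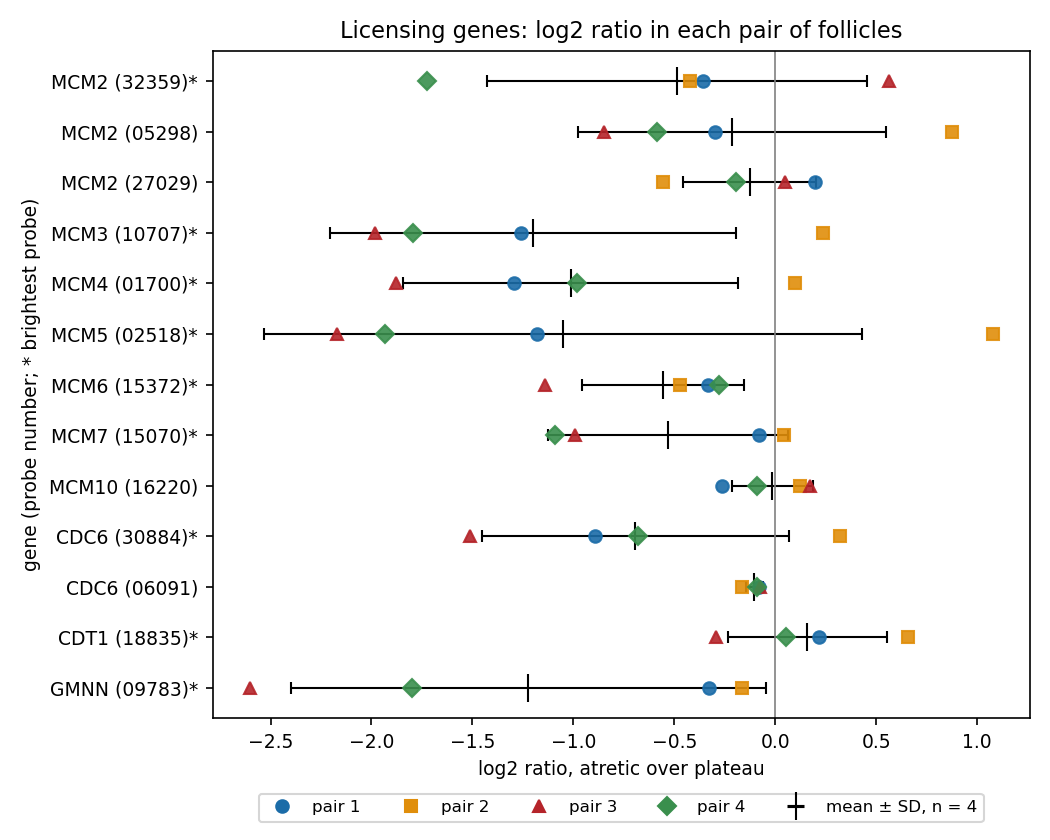
Log2 ratio of atretic over plateau (horizontal axis) of each of the 13 probes in the 4 pairs of follicles (symbols), with the mean and SD over pairs (vertical tick and bar). For MCM3, MCM4, MCM5 and CDC6 (brightest probe) pair 2 lies above 0, at 0.10 to 1.08, and the other pairs lie at -0.68 or below.

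The median over the 9 tested genes was -0.36 in pair 1, 0.10 in pair 2, -1.51 in pair 3 and -1.09 in pair 4, and the number of genes below 0 was 8, 3, 8 and 8. Over all genes the pair medians lay between -0.00 and 0.02, since normalisation within arrays centres the log ratios near 0. When each pair was left out in turn, 2 of the 9 genes passed the threshold without pair 1, 6 without pair 2, 1 without pair 3 and 1 without pair 4. All that passed were lower in atretic follicles. Of the 33519 tested probes, 803, 780, 700 and 705 were lower at the threshold without pairs 1 to 4 in turn, beside 672 with all pairs. The median of the licensing genes without pair 2 was -1.03, and without the other pairs it lay between -0.70 and -0.68. With the pair as a replicate block, 5 of the 9 passed, MCM3, MCM4, MCM5, CDC6 and GMNN, none of them at an adjusted p of 0.05. In that fit 1068 of the 33519 probes were lower at the threshold. It takes 1 correlation between the arrays of a pair, 0.445, for all probes. For MCM5 the SD was 0.20 between dye-swapped arrays and 1.48 between pairs, so this fit counts part of the same RNA more than once. Its limma p was 0.0194 for MCM5 and 0.0261 for CDC6, beside 0.0232 and 0.0150 with 8 arrays taken as independent. For none of the 9 did the 4 atretic levels lie below all 4 plateau levels, which was the case for 1.22% of all genes.

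The spread between follicles of a phase was smaller in the atretic group for 8 of the 9 genes, MCM7 being the exception. This was also so for 60.3% of all genes, so a smaller atretic spread was common on these arrays. An SD over atretic follicles less than 50% of that over plateau follicles was found for 4 of the 9, MCM3, MCM4, MCM6 and CDC6, and for 21.6% of all genes. MCM3 had the widest contrast, with an SD of 0.14 over atretic follicles and 1.13 over plateau follicles. For MCM4 the SDs were 0.18 in atretic and 0.71 in plateau follicles, and for CDC6 they were 0.18 in atretic and 0.69 in plateau follicles. The atretic levels of CDC6 were near background, with 6 of 8 readings above the negative controls. Those of MCM3 and MCM6 were also low, with means of 8.18 and 8.05, but all 8 readings of each were above these controls. Whether low intensity narrowed the atretic spread of these genes was not tested. The median SD over all genes was 0.29 in atretic and 0.35 in plateau follicles. No test was made of these spreads, since 4 follicles a group give little precision for an SD.

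**Figure D3:**
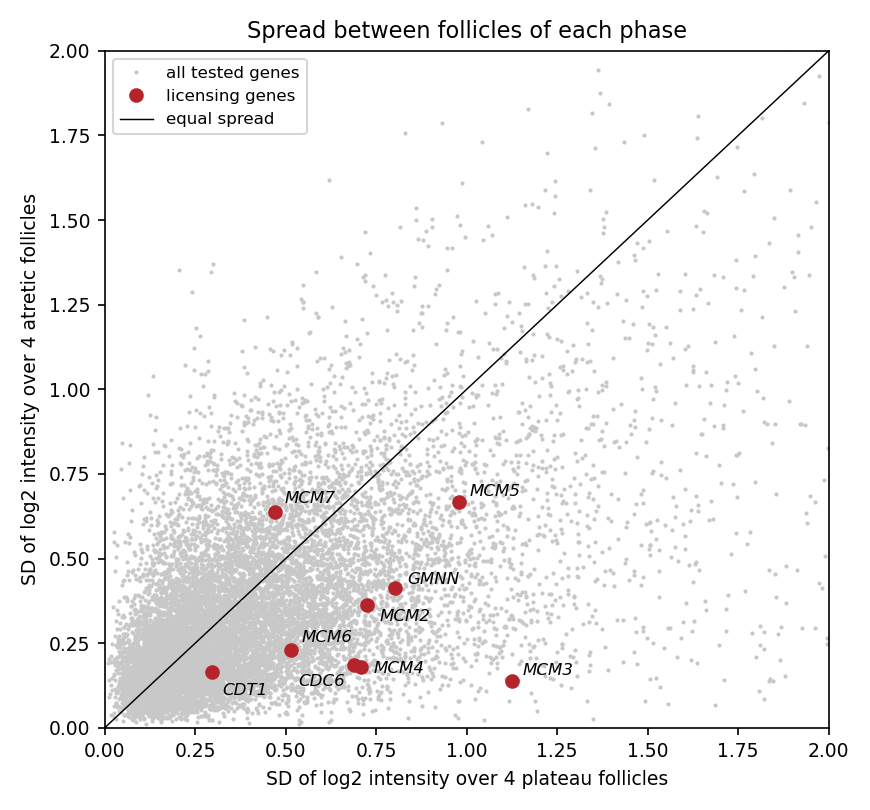
SD of the normalised log2 intensity over 4 atretic follicles (vertical axis) against that over 4 plateau follicles (horizontal axis) for 12941 genes (grey) and the 9 licensing genes (red), with a line of equal spread. All licensing genes but MCM7 lie below the line, and 181 genes beyond 2 on either axis are not drawn.

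Each ratio was measured on both slides with the dyes swapped. For the brightest probes of MCM2, MCM3, MCM5, MCM6, MCM7, CDC6 and GMNN the sign was the same on both slides in all 4 pairs, and for MCM4 in 3. The slide means were -1.18 on slide 205 and -1.22 on slide 206 for MCM3, -0.89 and -1.13 for MCM4, and -1.12 and -1.33 for GMNN. CDT1 behaved otherwise, with a mean of -0.29 on slide 205 and 0.60 on slide 206 and the same sign on both in only 1 of 4 pairs. The dim probe of CDC6 also turned sign, with -0.38 on slide 205 and 0.18 on slide 206. Averaging over the swap balances such a shift, but slide and dye orientation cannot be told apart. The brightest probe of CDC6 was below 0 on both slides, at -0.36 and -1.02.

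**Figure D4:**
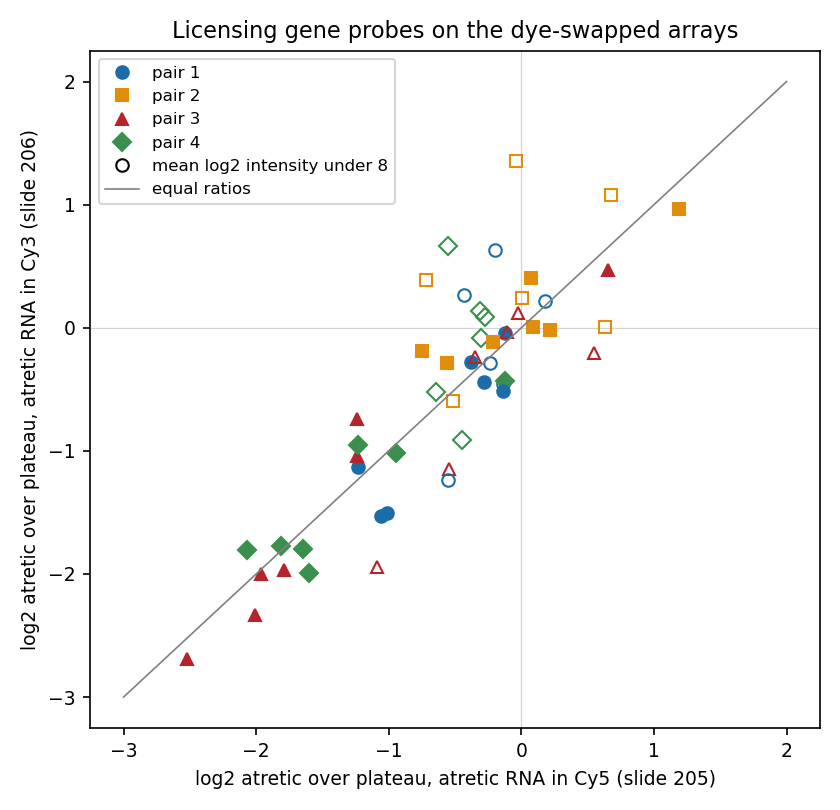
Log2 ratio of atretic over plateau on slide 206 (vertical axis, atretic RNA in Cy3) against that on slide 205 (horizontal axis, atretic RNA in Cy5) for the 13 licensing gene probes in 4 pairs (symbols), with a line of equal ratios. Open symbols mark probes with a mean log2 intensity under 8, and they hold 9 of the 10 points, out of 52, whose sign turned between slides.

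The proteins that work with the licensing genes were followed in 7 lists. Of 10 tested genes of origin recognition and MCM loading, only ORC1, the subunit of the origin recognition complex whose protein level varies through the cell cycle in human cells, fell (-0.76 ± 0.64), with 2 of 8 atretic and 6 of 8 plateau readings above the negative controls and its other, dimmer probe at -0.27. ORC2 to ORC6 lay between -0.03 and 0.25, and the median of the list was -0.01. Their SDs over pairs were 0.46 for ORC6 to 1.05 for ORC2, too wide to call these subunits unchanged. Of 14 genes for origin firing and helicase partners, WDHD1, which couples the helicase to DNA polymerase alpha, fell (-1.06 ± 0.48), as did DBF4, the activating subunit of the kinase CDC7 that phosphorylates the MCM ring (-0.72 ± 0.55, with its other, dimmer probe at 0.02). CDC7 itself read -0.19 ± 0.64. All 14 genes had a mean below 0, as did 6423 of 12941 genes over all, and the median of the list was -0.28. Of the 14, 12 did not pass, and only 9 were above the negative controls in all readings. CDC45, which joins the MCM ring in the active helicase, read -0.37 ± 0.59.

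Among 15 genes that control the turnover of CDT1 and geminin, 3 fell and none rose. These were the cyclin CCNA2 (-1.48 ± 1.39, with its other, dimmer probe at 0.03), CDC20, an activator of the anaphase-promoting complex (-1.15 ± 0.77), and CDKN1A, an inhibitor of cyclin-dependent kinases (-0.67 ± 0.24). The ligase subunits CUL4A, DDB1 and SKP2 did not pass, at -0.17 ± 0.22, -0.17 ± 0.44 and -0.38 ± 0.63. Of 22 polymerase, clamp and ligase genes, POLE2 (-0.96 ± 0.90) and the sliding clamp PCNA (-0.92 ± 0.64) fell, and POLE4, a small subunit of DNA polymerase epsilon, rose (0.98 ± 0.96). The other probes of PCNA read -0.76, -0.92 and -0.37, and those of POLE4 read 0.92 and 0.25. Of 8 genes of deoxynucleotide synthesis, CTPS1 (-0.77 ± 0.54), TYMS (-0.76 ± 0.67) and DUT (-0.70 ± 0.57) fell, although the dimmer probes of TYMS read -0.17 and -0.14 and those of DUT -0.35 and 0.04. The list medians were -0.17 for turnover, -0.15 for polymerases and -0.57 for deoxynucleotide synthesis.

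None of 14 tested genes of the E2F and RB family, which regulate transcription of replication genes, passed in either direction, and their median was 0.03. Those with the smallest p were E2F6 (0.46 ± 0.45, with its other probes at -0.16 and 0.05) and E2F1 (-0.60 ± 0.85). Of 19 mitosis markers, 16 fell and none rose, with a median of -1.55. The largest ratios were those of the spindle pole gene ASPM (-2.28 ± 0.51), the kinesin KIF2C (-2.11 ± 1.44), PRC1, which bundles the midzone of the spindle (-2.003 ± 1.37), and cyclin B1, CCNB1 (-1.97 ± 1.04). Their pair medians were -1.26, -0.39, -2.63 and -1.62, so pair 3 was lowest and pair 2 highest, as for the licensing genes. The difference between the lists was not tested, and both rest on the same 4 pairs.

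**Figure D5:**
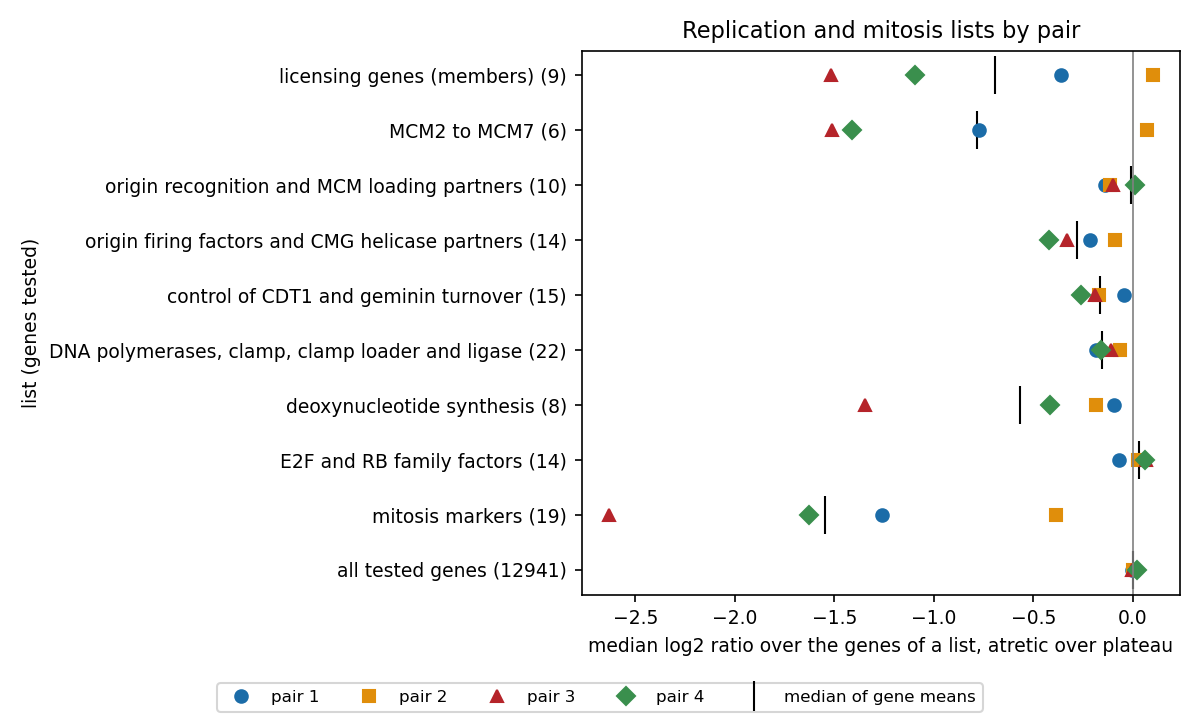
Median log2 ratio of atretic over plateau (horizontal axis) over the tested genes of each list (number in brackets) in the 4 pairs of follicles (symbols), with the median of the gene means (vertical tick). The licensing genes and the mitosis markers share the order of the pairs, and the pair medians of all 12941 genes lie near 0, where normalisation sets them.

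Markers of other cells also differed between the pairs. The median ratio of the 9 stromal markers was 0.39, -0.65, -4.25 and -0.06 in pairs 1 to 4, and their summed intensity ranged from 5059 to 9551 over atretic follicles and from 3966 to 150356 over plateau follicles. None of the 9 passed the threshold, and 7 of them were above the negative controls in all readings. The granulosa markers also moved most in pair 3, with a median of 2.13 there and of 0.04, 0.88 and -0.23 in pairs 1, 2 and 4, and their summed intensity ranged from 257814 to 357824 over atretic and from 93338 to 393859 over plateau follicles. The plateau follicle of pair 3, which had the highest levels of MCM3, MCM4, MCM5, MCM6, CDC6 and GMNN, was thus in the pair with the widest difference in stromal markers. That pair also had the lowest median of the licensing genes, -1.51. In pair 4, where the stromal median was -0.06, the median of the licensing genes was -1.09. The part of these cells in the ratios of the licensing genes was not tested. The 6 tested theca markers had a median of 1.56 in pair 1 and between -0.91 and 0.03 in the others. Their summed intensity ranged from 5990 to 57480 over atretic and from 9606 to 59032 over plateau follicles. In pair 1 STAR read 3.12, LHCGR 3.80, HSD3B1 1.36, INSL3 0.43 and PTCH1 -0.09. The paper quantified STAR in granulosa cells, so this list may not read theca cells alone. The theca marker CYP17A1 read 1.77, -0.05, -0.86 and -0.89 in pairs 1 to 4. The paper left an atretic sample out of its PCR analysis because its higher CYP17A1 level was taken to point to theca cells. The labels do not say whether that sample is on these arrays. None of the 6 endothelial, 10 myeloid, 7 lymphocyte and 5 red blood cell markers tested passed, with list medians between -0.30 and -0.06. Most of these were near background, with 0 endothelial, 3 myeloid, 1 lymphocyte and 1 red blood cell marker above the negative controls in all readings. The myeloid median was 0.40, -0.86, -0.60 and -0.21 in pairs 1 to 4.

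Among 7094 other named genes whose mean log2 intensity reached 8, the 6 whose ratios over the 4 pairs lay nearest to the median of the licensing genes were POLR2L, TOPBP1, ARMC1, REEP4, ILVBL and TUBB. The root mean square difference was 0.096 for POLR2L, a small subunit shared by RNA polymerases, and 0.100 for TOPBP1, which helps to start origins. It was 0.121 for ARMC1, 0.122 for REEP4, which clears membrane from chromosomes in mitosis, 0.159 for ILVBL and 0.160 for the tubulin TUBB. TOPBP1 read -0.32, 0.17, -1.54 and -1.27 in pairs 1 to 4 and did not pass the threshold. TOPBP1 is also on the list of origin firing genes. The licensing genes themselves lay farther from their median than these 6, from 0.30 for MCM7 to 1.12 for MCM2. The likeness is thus to the median and not to each licensing gene, is over 4 pairs and is a description.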

How the data were processed

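Amplified RNA of granulosa cells from 4 atretic and 4 plateau follicles was measured on 8 two-colour arrays. The authors deposited a median spot intensity and local background per channel from their image analysis, and a log2 ratio table (Cy5 over Cy3), for which the methods give subtraction of background, then loess and quantile normalization. Recomputed ratios correlated with that deposited table at 0.997 to 1, which settled its direction. Its column medians were -0.0289 to -0.00543.

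Here the intensities were corrected by normexp (offset 50) and normalized by loess within arrays (span 0.3, control and marked spots at weight 0) and quantiles between arrays. Each ratio was turned to atretic over plateau. Arrays of equal number were averaged as dye swaps. From their log ratios, each probe's mean over the 4 arrays of a slide was removed. The remainders correlated between slides at 0.761 to 0.866 for equal numbers and at -0.488 to -0.0326 for unequal ones. Removing that mean itself pushes the unequal ones below 0 on average, so their sign tells nothing about the pairing. The pairing comes from the shared hybridisation. Probes whose mean log2 intensity reached 7 were fitted with lmFit and eBayes in limma, on 4 pairs. A reading was above the negative controls where it exceeded the 95th percentile of the 153 negative control spots.

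Of 43794 gene probes, 21790 had 1 symbol in the platform annotation, 0 had several and 22004 had none. The symbols of 1524 probes were updated from the ARS-UCD2.0 gene records. All members were named with every probe. Of each of 7 lists, the text names at most 4 genes, those of largest change among the genes that passed the study's threshold, or the 2 with the smallest p. ORC2 to ORC6, CDC7, CDC45, CUL4A, DDB1 and SKP2 lie outside this rule and were added after their values were seen. The 6 genes of most similar pattern were named by root mean square difference. Members and lists were chosen with earlier results of these data known.

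In total 21 alternatives changed background correction, normalization, filters, marked spots, dye swaps, slide, source of values, variance model, probe, fold and pairs left out. The fitting steps were tested on simulated data, and background correction and normalization were not. A search of promoters for motifs was not run because no promoter sequences were used here. Limma 3.58.1 and statmod 1.5.0 were run in R 4.3.3, and figures were drawn with matplotlib 3.10.9 in Python 3.11.15.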

Additional observations from a re-analysis of the deposited data

Results flagged for a closer look

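In groups of 4 values, 39 groups of licensing gene levels and ratios were examined for a single value far from the rest, and 2 had one. Chance alone gives about 1 in 20 groups. The MCM7 level in the atretic follicle of pair 2 was 9.58, against 8.21 to 8.39 in the other atretic follicles. The plateau follicle that shared its arrays was also high, at 9.54. The CDT1 level in the atretic follicle of pair 3 was 7.44, against 7.76 to 7.78 in the others, a gap small in size next to the shift of CDT1 between slides.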

How the results depend on the processing

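The median over the licensing genes stayed between -1.03 and -0.53 in every alternative, and no gene that passed turned its sign. Alternatives that change only the fit, such as the replicate block, cannot move this median, which was -0.69 in them. Of the single genes, CDT1 turned from 0.16 to -0.29 on slide 205 alone. The threshold was passed by 3 licensing genes as reported, by 5 with the pair as a replicate block, by 5 with a dye term added to the replicate block and by 5 with 8 arrays taken as independent. Leaving out a pair gave 1 to 6. Of 33519 tested probes, 1393 passed as reported (721 higher, 672 lower), and 1287 to 1811 with a pair left out. The number was 2216 with the replicate block, 2200 with the dye term added and 2225 with independent arrays. It was 2712 on slide 205 alone, 2665 on slide 206 alone and 501 at a fold of 2. The balance turned to 565 higher and 735 lower with loess alone, 587 and 700 without pair 3, and 172 and 329 at a fold of 2. An adjusted p of 0.05 was passed by 0 probes as reported, and by 0 with a pair left out, but by 549 with the replicate block, 436 with the dye term added and 964 with independent arrays. Treating both arrays of a pair as independent counts the same RNA more than once. The replicate block does so in part for probes whose dye swaps repeat more closely than its single correlation of 0.445. With independent arrays MCM3 and MCM4 had adjusted p-values of 0.0474 and 0.0483 in limma. The cause of the changes on single slides was not tested. MCM10 and the second probe of CDC6 were too near background to show a difference.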
